A study of Mus musculus with 15 samples.

Results

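Transcription factors that specify and maintain striatal spiny projection neurons were examined in the striatum of mice of 3 genotypes. The set holds 9 genes of the 54232 in the count table, named by symbol and found through their Ensembl identifiers: Bcl11b, Foxp1, Foxp2, Rarb, Meis1, Meis2, Six3, Zfp503 and Zfp521. The choice goes by name and function, made with earlier results of these data known, and all 9 passed the filter on low counts that left 18278 genes for testing. RNA came from striatum of mice aged 6 months, with 1 library per mouse: 7 libraries are labelled WT, 4 E1 and 4 KI-96. The study concerns Huntington's disease models that carry an expanded CAG repeat in the mouse's own Htt gene, and, by its title, toxicity from RAN translation, in which a repeat is translated without a start codon. E1 and KI-96 are given as genotype names with no allele, repeat length or strain beside them, and WT is the reference group.

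Spiny projection neurons are the inhibitory output cells of the striatum and the cells most affected in Huntington's disease. They form a direct pathway, marked by the dopamine receptor gene Drd1, and an indirect pathway, marked by Drd2 and Penk. Their identity is set during development by homeodomain, forkhead and zinc finger factors, several of which stay on in the adult and keep genes of dopamine and cyclic AMP signalling expressed. Some of these factors are also made elsewhere: Bcl11b and Foxp2 in deep layers of cortex, Foxp1 in several cortical layers, and Foxp2 in thalamus.

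The 9 markers used for spiny neurons were present in every library, from 110 CPM (the count scaled to the normalized library total) for the lowest value of Tac1 to 2447 CPM for the highest of Ppp1r1b. Total counts per library ran from 14678565 to 26388542. Markers of cortical excitatory neurons were high in 3 libraries: the mean log2 CPM of all 14 markers reached 5.53 for WT replicate 3 and, among E1 mice, 5.57 for replicate 2 and 5.04 for replicate 3, against 1.74 to 3.31 in the other 12. Markers of thalamus, pallidum and habenula (8 of 9 tested) were highest in KI-96 replicate 4, at 4.13 against 1.21 to 2.99 elsewhere, and KI-96 replicate 3 lay at -73.0 on the first principal component, where the other libraries lay between -23.1 and 34.7. Counts of 4 Y-linked genes summed to at least 2680 in WT replicates 2 to 7 and to at most 2 in the other 9 libraries, so WT replicate 1 was the single WT library like E1 and KI-96 in this respect. Htt, the gene altered in such knock-in mice, was at 169 to 197 CPM in WT, 135 to 148 CPM in E1 and 144 to 242 CPM in KI-96. In bulk tissue, fewer cells of a type and less RNA per cell cannot be told apart.

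Per kilobase of exon, the factors spanned a wide range of levels in the same order in nearly all libraries. Bcl11b was the highest, at a mean of 47.5 CPM per kilobase over the 15 libraries, followed by Meis2 at 32.0, Foxp1 at 22.9, Six3 at 15.4, Rarb at 8.11, Zfp503 at 7.04, Foxp2 at 4.86, Zfp521 at 3.14 and Meis1 at 1.26. Each gene lay above the next in all 15 libraries, except that Foxp1 lay above Six3 in 14 and Rarb above Zfp503 in 13. Rarb and Zfp503 were thus the neighbours least separated, at 5.80 to 10.1 and 5.05 to 9.80 CPM per kilobase. These lengths join all annotated exons of a gene, so a gene with many rarely used exons is placed too low on this scale.

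**Figure D1:**
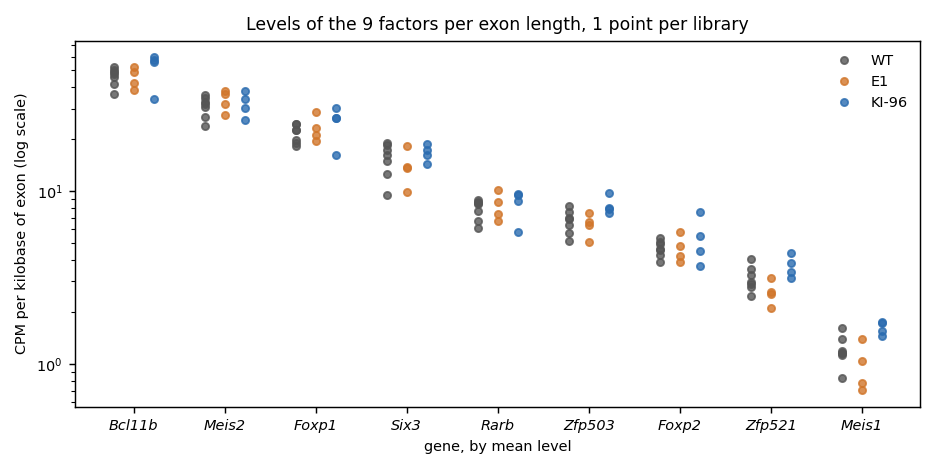
Level of each factor per exon length (y axis, CPM per kilobase of exon, log scale), with 1 point per library coloured by genotype and genes ordered by mean on the x axis. Means run from 47.5 for Bcl11b to 1.26 for Meis1, and the points of Rarb and Zfp503 cover nearly the same heights.

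Bcl11b, also called CTIP2, is a zinc finger factor that spiny neurons need in order to mature (chromosome 12, 107910403 to 108003602, build GRCm38). In WT it ranged from 295 to 423 CPM, with a median of 384. The E1 libraries held 427, 344, 395 and 313 CPM in the order of their replicates, and the KI-96 libraries 483, 455, 469 and 277 CPM. Of the KI-96 libraries 3 lay above every WT library and the other 1, replicate 4, below every WT library, so the groups overlapped. The log2 fold changes were -0.02 (SE 0.14) for E1 against WT, 0.17 (SE 0.14) for KI-96 against WT and 0.19 (SE 0.16) for KI-96 against E1.

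Foxp1, a forkhead repressor expressed in both spiny neuron types (chromosome 6, 98925338 to 99522721), showed the same arrangement of libraries. Its WT values ran from 252 to 338 CPM with a median of 309. E1 had 396, 290, 320 and 267 CPM, and KI-96 had 364, 364, 418 and 222 CPM. Again KI-96 replicate 4 was the lowest of all 15 libraries and the other 3 of its group exceeded all WT libraries. Foxp2, its relative known for inherited speech disorder (chromosome 6, 14901349 to 15441977), ranged from 63.6 to 88.0 CPM in WT with a median of 75.6. E1 libraries were at 94.9, 64.0, 79.2 and 69.3 CPM and KI-96 libraries at 89.8, 74.0, 124 and 60.5 CPM. The highest and lowest Foxp2 values of the series were both KI-96 libraries, replicates 3 and 4. Without KI-96 replicate 3 the log2 fold change of Foxp2 against WT turned from 0.18 (SE 0.15) to -0.03, and without KI-96 replicate 4 it was 0.32.

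Rarb encodes a retinoic acid receptor, a ligand-dependent factor that pairs with RXR receptors (chromosome 14, 16430839 to 16819156). Its WT libraries ran from 32.2 to 46.6 CPM with a median of 44.2. E1 had 53.2, 35.5, 45.8 and 38.8 CPM and KI-96 had 46.0, 50.2, 50.8 and 30.6 CPM. The lowest value was once more that of KI-96 replicate 4, and the groups overlapped. Rarb shares 1793 exonic bases with Top2b on the opposite strand, which was at 96.9 to 131 CPM. The sources used here do not say whether reads were counted by strand, so the split of reads between these genes is uncertain.

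The promoter of Rarb is shown because retinoic acid receptors are known to act on this gene itself. Of the 9 factors 7 matched RefSeq promoters of build GRCm38.p6, with 9 annotated starts. The 250 bases before the Rarb start hold a direct repeat, GGTTCA followed after 5 bases of any kind by AGTTCA, which is a form of the retinoic acid response element. It was searched on both strands and lies at bases -53 to -37 from the start. Of 32851 promoters of the same length 2 hold these letters (0.00609%), and of the 9 windows here only that of Rarb does. Only this form, the one present in Rarb, was searched, so these counts cannot show how rare the element is. The sequence runs 5′ to 3′ on the minus strand, chr14:16575477-16575726, with the match in capitals.
Rarb: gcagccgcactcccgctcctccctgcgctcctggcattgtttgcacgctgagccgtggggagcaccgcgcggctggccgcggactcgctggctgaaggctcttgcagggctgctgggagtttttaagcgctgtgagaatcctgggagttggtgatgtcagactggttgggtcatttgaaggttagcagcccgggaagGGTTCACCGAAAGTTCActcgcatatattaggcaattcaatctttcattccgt

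Meis1 and Meis2 encode homeodomain factors that bind DNA together with PBX proteins. Meis2 (chromosome 2, 115863064 to 116065839) was at 285 to 434 CPM in WT with a median of 386. E1 libraries held 457, 333, 440 and 384 CPM and KI-96 libraries 410, 458, 367 and 312 CPM. The 3 groups covered nearly the same range, and the log2 fold changes were 0.11 (SE 0.13), 0.05 (SE 0.13) and -0.06 (SE 0.15) for E1 against WT, KI-96 against WT and KI-96 against E1.

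Meis1 (chromosome 11, 18879817 to 19018985) had the largest log2 difference between the mutant groups among the 9. It ranged from 8.70 to 17.0 CPM in WT with a median of 12.3. E1 had 10.9, 8.20, 7.45 and 14.6 CPM, and KI-96 had 15.4, 18.4, 18.1 and 16.4 CPM. All 4 KI-96 libraries lay above all 4 E1 libraries, and both groups overlapped WT. The 3 lowest values of the series were WT replicate 3 and E1 replicates 2 and 3, which are the libraries with high cortical markers. Meis1 rests on the fewest reads of the set, 140 to 395 per library. Gm37818, annotated on the same strand with 1029 exonic bases shared, was at 0.0532 to 0.962 CPM.

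Six3, a homeodomain factor needed to generate indirect pathway neurons (chromosome 17, 85613608 to 85629302), had the widest spread in WT relative to its mean, from 51.9 to 104 CPM with a median of 88.7. E1 libraries were at 73.9, 54.2, 75.1 and 99.0 CPM, and KI-96 libraries at 88.5, 94.4, 78.5 and 102 CPM. The 2 lowest libraries, WT replicate 3 and E1 replicate 2, both had high cortical markers. Six3os1, a noncoding gene on the opposite strand with 106 exonic bases in common, was at 10.5 to 30.8 CPM. Its log2 fold changes had the signs of those of Six3: -0.32, 0.13 and 0.46 for E1 against WT, KI-96 against WT and KI-96 against E1, beside -0.16 (SE 0.17), 0.11 (SE 0.17) and 0.27 (SE 0.20) for Six3. The edgeR adjusted p of Six3os1 was 0.733, 0.892 and 0.501 in the same order. Whether reads were counted by strand is not known, so the split of reads between these genes is uncertain.

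The Six3 promoter is shown because it holds TGACAG, the core letters bound by MEIS factors, which are themselves in the set. The match lies at bases -139 to -134 from the start. Searched on both strands, these letters are in 2 of the 9 windows, those of Six3 and of 1 Foxp1 start, and in 15.9% of all 32851 promoters, so their presence does not set the factors apart. TGTTTAC, a forkhead core, was in 0 of the 9 windows and in 3.17% of all. The sequence runs 5′ to 3′ on the plus strand, chr17:85620584-85620833, with the match in capitals.
Six3: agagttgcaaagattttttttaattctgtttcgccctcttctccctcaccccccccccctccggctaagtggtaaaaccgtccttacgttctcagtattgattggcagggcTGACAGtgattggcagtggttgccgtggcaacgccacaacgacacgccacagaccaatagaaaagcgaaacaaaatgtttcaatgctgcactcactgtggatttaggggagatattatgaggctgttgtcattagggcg

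Zfp503, also called Nolz1, is a zinc finger repressor expressed in striatal progenitors (chromosome 14, 21983959 to 21989601). It ranged from 21.8 to 34.4 CPM in WT with a median of 29.0. E1 had 27.0, 21.3, 31.3 and 28.0 CPM, and KI-96 had 41.3, 33.7, 33.3 and 31.6 CPM. All 4 KI-96 libraries exceeded all 4 E1 libraries, by a narrow margin between 31.3 and 31.6 CPM. Zfp521, a zinc finger protein known for driving stem cells toward a neural fate, ranged from 17.3 to 28.4 CPM in WT with a median of 21.0. E1 libraries held 17.8, 14.8, 18.4 and 22.0 CPM and KI-96 libraries 31.0, 22.2, 27.0 and 23.9 CPM. Here too the KI-96 and E1 groups did not overlap, with 22.0 and 22.2 CPM as the nearest values. WT replicate 1 was the highest WT library for Meis1, Zfp503 and Zfp521, at 17.0, 34.4 and 28.4 CPM, and also for Foxp1, Bcl11b and Meis2, at 338, 423 and 434 CPM.

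**Figure D2:**
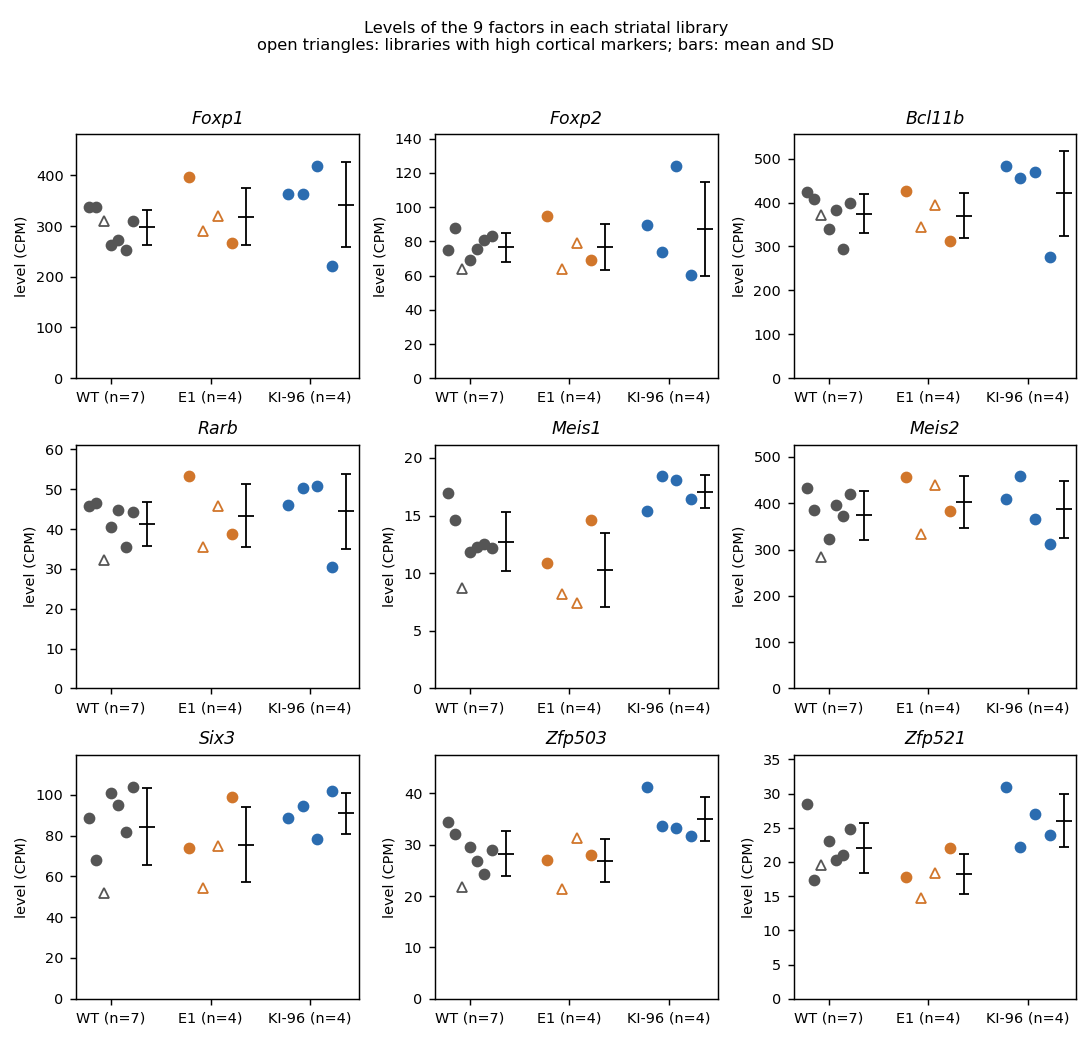
Level of each factor in CPM (y axis, from 0) in the WT, E1 and KI-96 libraries, 1 point per library, with the mean and SD at the right of each group and open triangles for the 3 libraries with high cortical markers. KI-96 libraries lie above all E1 libraries for Meis1, Zfp503 and Zfp521, and KI-96 replicate 4 (rightmost) is the lowest point for Bcl11b, Foxp1, Foxp2 and Rarb.

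E1 was first compared with WT. None of the 9 passed the edgeR threshold (quasi-likelihood test, Benjamini-Hochberg adjusted p under 0.05 over all genes), where 1 of 18278 genes did (0.00547%). At an unadjusted p under 0.05 there were 0 of 9, against 8.75% of all genes (3.69% higher in E1), and DESeq2 and limma-voom called 0 of the 9. No factor had E1 and WT libraries that did not overlap, where 0.892% of genes did with E1 higher and 0.799% with E1 lower. Of the factors 4 had higher and 5 lower means in E1, with a median log2 fold change of -0.02 beside -0.00 over all genes. The estimate farthest above 0 was Meis2 at 0.11 (adjusted p = 0.809) and the farthest below 0 was Meis1 at -0.30 (SE 0.18, adjusted p = 0.631). Without E1 replicate 3 Meis1 had -0.18 (SE 0.18, edgeR adjusted p = 0.872), and without E1 replicate 4 it had -0.52 (SE 0.18, edgeR adjusted p = 0.168). Zfp521 had -0.27 (SE 0.14, adjusted p = 0.597). All 9 intervals of 95% lay within a log2 fold change of -1 to 1. The lowest bound was a ratio of 0.622 for Meis1 and the highest a ratio of 1.33 for Foxp1. Without the 3 libraries with high cortical markers, Meis1 had -0.07 (SE 0.17) and Zfp521 -0.18 (SE 0.18). With the Y-linked genes as a covariate, Meis1 had -0.69 (SE 0.29) and Zfp521 -0.64 (SE 0.21), each with an adjusted p of 1.00. Genotype and Y-linked reads can hardly be told apart here, since WT replicate 1 alone links them.

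KI-96 was compared with the same WT libraries. None of the 9 factors passed the edgeR threshold, and 0 of 18278 genes did (0.00%), while DESeq2 called 72 genes and limma-voom 1, none of them among the 9. All 9 had higher means in KI-96, with a median log2 fold change of 0.18 beside -0.01 over all genes, of which 47.9% were higher. With the Y-linked genes as a covariate, Bcl11b, Rarb, Meis2 and Zfp521 turned below 0, at -0.01, -0.04, -0.15 and -0.13. At an unadjusted p under 0.05 there were 2 of 9, both higher, against 10.5% of all genes (5.80% higher in KI-96). These were Meis1 at 17.1 ± 1.45 CPM (SD, n = 4) and 12.7 ± 2.57 (n = 7), a log2 fold change of 0.42 (SE 0.18, edgeR adjusted p = 0.408), and Zfp503 at 35.0 ± 4.34 CPM (n = 4) and 28.3 ± 4.36 (n = 7), 0.31 (SE 0.13, edgeR adjusted p = 0.407). No factor had groups that did not overlap, where 0.635% of genes did with KI-96 higher and 0.651% with KI-96 lower. The intervals of all 9 lay within -1 to 1, with the lowest ratio at 0.838 for Six3 and the highest at 1.73 for Meis1. With the same covariate Meis1 and Zfp503 had 0.04 (SE 0.30) and 0.03 (SE 0.22). Spiny neuron effector genes did not share the sign of the factors: 6 of 16 had higher means in KI-96 (median -0.12), from -0.38 (SE 0.22) for Penk, which encodes enkephalin, to 0.30 (SE 0.14) for Gnal, a G protein subunit of dopamine receptor signalling.

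KI-96 and E1 were then compared with each other, in 8 libraries that all held at most 2 Y-linked counts. None of the 9 factors and 0 of 18278 genes (0.00%) passed the edgeR threshold. DESeq2 called 206 genes, among them Meis1 alone of the 9, and limma-voom called 0. The 2 groups did not overlap for 3 of 9 factors, each higher in KI-96, where 2.29% of all genes were arranged in this way and 2.50% in the opposite way. The same 3 had an unadjusted p under 0.05, against 14.3% of all genes (7.84% higher in KI-96). Meis1 was at 17.1 ± 1.45 CPM (SD, n = 4) in KI-96 and 10.3 ± 3.26 (n = 4) in E1, a log2 fold change of 0.73 (SE 0.20, edgeR adjusted p = 0.206, DESeq2 adjusted p = 0.0434). Its 95% interval was a ratio of 1.23 to 2.23. Zfp521 was at 26.0 ± 3.85 against 18.2 ± 2.96 CPM (0.51, SE 0.16, edgeR adjusted p = 0.217), and Zfp503 at 35.0 ± 4.34 against 26.9 ± 4.18 CPM (0.38, SE 0.14, edgeR adjusted p = 0.274). The other 6 factors had log2 fold changes from -0.06 for Meis2 to 0.27 for Six3.

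The difference in Meis1 moved with the libraries compared. Without E1 replicate 4, the E1 library with the most Meis1, its log2 fold change was 0.95 with an edgeR adjusted p of 0.0294. That fit kept E1 replicates 2 and 3, which had high cortical markers, and 190 genes passed the threshold in it. Without the 3 libraries with high cortical markers, which left 2 E1 libraries, Meis1 had 0.42 (SE 0.18, edgeR adjusted p = 0.448). Zfp503 and Zfp521 had 0.34 (SE 0.15) and 0.38 (SE 0.19) in the same fit. With cortical markers as a covariate Meis1 had 0.58 and Zfp521 0.42. Over all 26 alternatives the adjusted p of Meis1 ran from 0.0294 to 0.539, and the sign of all 3 differences was kept.

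**Figure D3:**
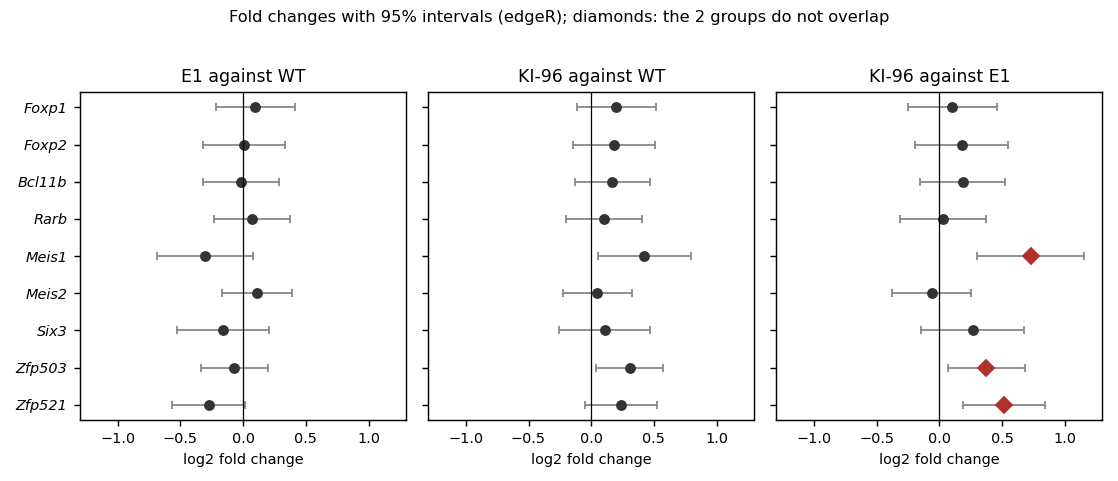
Log2 fold changes of the 9 factors (x axis) with 95% intervals from edgeR in the 3 comparisons, with diamonds where the 2 groups do not overlap. In KI-96 against E1 the diamonds are Meis1 (0.73), Zfp503 (0.38) and Zfp521 (0.51), and no factor passed the adjusted threshold in any panel.

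E1 and KI-96 share their WT libraries as a reference, so their fold changes against WT are set side by side and not correlated. Meis1 had -0.30 in E1 and 0.42 in KI-96, Zfp521 had -0.27 and 0.24, Zfp503 had -0.07 and 0.31, and Six3 had -0.16 and 0.11. Foxp1 had 0.10 and 0.20, Rarb 0.07 and 0.10, Meis2 0.11 and 0.05, Foxp2 0.01 and 0.18, and Bcl11b -0.02 and 0.17.

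Related genes were taken from lists chosen by function, and none of the 4 lists had a member past the edgeR threshold in any comparison. Over all genes the median log2 fold changes were -0.00 for E1 against WT, -0.01 for KI-96 against WT and -0.00 for KI-96 against E1. Of the 10 family relatives 8 were tested, with 3, 5 and 3 higher in these comparisons and medians of -0.05, 0.02 and -0.11. Rara, another retinoic acid receptor, had the highest value in E1 against WT, 0.27 (SE 0.24), and Zfp423, the relative of Zfp521, the lowest, -0.14 (SE 0.16). Zfp423 was the highest in both other comparisons, at 0.32 (SE 0.16) and 0.46 (SE 0.18, adjusted p = 0.279), and Six4 the lowest, at -0.65 (SE 0.36) and -0.61 (SE 0.40). Six4 rests on few reads, at a mean of 0.937 CPM over all libraries.

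The 17 cofactors, among them the PBX partners of MEIS and the RXR partners of Rarb, were all tested, with 10, 13 and 10 higher and medians of 0.05, 0.09 and 0.04. Rxrg, an RXR receptor enriched in striatum, was the highest in E1 against WT, at 0.45 (SE 0.23, adjusted p = 0.599), and the lowest in KI-96 against E1, at -0.25 (SE 0.26). Nr2f2, a nuclear receptor of ventral forebrain development, was the lowest in E1 against WT, at -0.53 (SE 0.60), and the highest in KI-96 against E1, at 0.75 (SE 0.66). In KI-96 against WT the lowest was Pbx4, at -0.24 (SE 0.14).

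Other factors of the striatal lineage had values on both sides of 0. Of 20 genes 19 were tested, with 12, 13 and 10 higher and medians of 0.11, 0.06 and 0.09. In KI-96 against E1, 7 of these 19 had an unadjusted p under 0.05 by edgeR, against 14.3% of all genes. There were 4 in E1 against WT, against 8.75% of all genes, and 4 in KI-96 against WT, against 10.5%. In KI-96 against E1 Zfhx3, a large homeodomain and zinc finger factor, was highest, at 0.98 (SE 0.25, edgeR adjusted p = 0.178). The lowest in that comparison was Sp8, a zinc finger factor of progenitors and interneurons, at -1.26 (SE 0.43, edgeR adjusted p = 0.243). Dlx1, a homeodomain factor of forebrain inhibitory neurons, was singled out after its values were seen. It had the smallest p of the list in KI-96 against E1, with -1.08 (SE 0.18, edgeR adjusted p = 0.108). In E1 against WT the ends were Gsx2 at 0.82 (SE 0.50) and Ebf1, a factor of direct pathway neurons, at -0.37 (SE 0.19). Gsx2 rests on few reads, at a mean of 0.504 CPM over all libraries. In KI-96 against WT they were Tshz1 at 0.63 (SE 0.23, adjusted p = 0.376) and Sp8 at -0.73 (SE 0.39).

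Spiny neuron effector genes, the receptors, peptides and signalling enzymes of these cells, had 11, 6 and 3 of 16 higher and medians of 0.12, -0.12 and -0.13. In E1 against WT the ends were Pdyn, which encodes dynorphin, at 0.27 (SE 0.23) and Adcy5, the main adenylyl cyclase of striatum, at -0.12 (SE 0.14). In KI-96 against E1 they were Adcy5 at 0.22 (SE 0.15) and Penk at -0.54 (SE 0.25, adjusted p = 0.342).

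The highest and lowest values of each factor were traced to their libraries. KI-96 replicate 4 held the lowest values of Bcl11b, Foxp1, Foxp2 and Rarb, and it had the highest thalamic marker mean, 4.13. Its spiny effector mean was 8.63 log2 CPM, where the 15 libraries ran from 8.59 to 9.44. KI-96 replicate 3 held the highest values of Foxp1 and Foxp2, 418 and 124 CPM, while its spiny effector mean was the lowest of the 15 libraries, at 8.59 log2 CPM. WT replicate 3 was lowest for Meis2 and Six3, E1 replicate 2 for Zfp503 and Zfp521, and E1 replicate 3 for Meis1, and these are the 3 libraries with high cortical markers. KI-96 replicate 1 held the highest values of Bcl11b, Zfp503 and Zfp521, KI-96 replicate 2 those of Meis1 and Meis2, E1 replicate 1, with the highest spiny effector mean (9.44), that of Rarb, and WT replicate 7 that of Six3. Without KI-96 replicate 1 the log2 fold changes of KI-96 against WT were 0.14 (SE 0.15) for Zfp521, 0.22 (SE 0.13) for Zfp503 and 0.09 (SE 0.16) for Bcl11b. Without KI-96 replicate 4 the log2 fold changes of KI-96 against WT were 0.36 (SE 0.13) for Foxp1, 0.32 (SE 0.12) for Bcl11b and 0.24 (SE 0.13) for Rarb, with adjusted p of 0.158, 0.172 and 0.344 by edgeR. With thalamic markers as a covariate and all libraries they were 0.27, 0.22 and 0.14. What tissue makeup contributes to the values of single libraries was not tested.

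**Figure D4:**
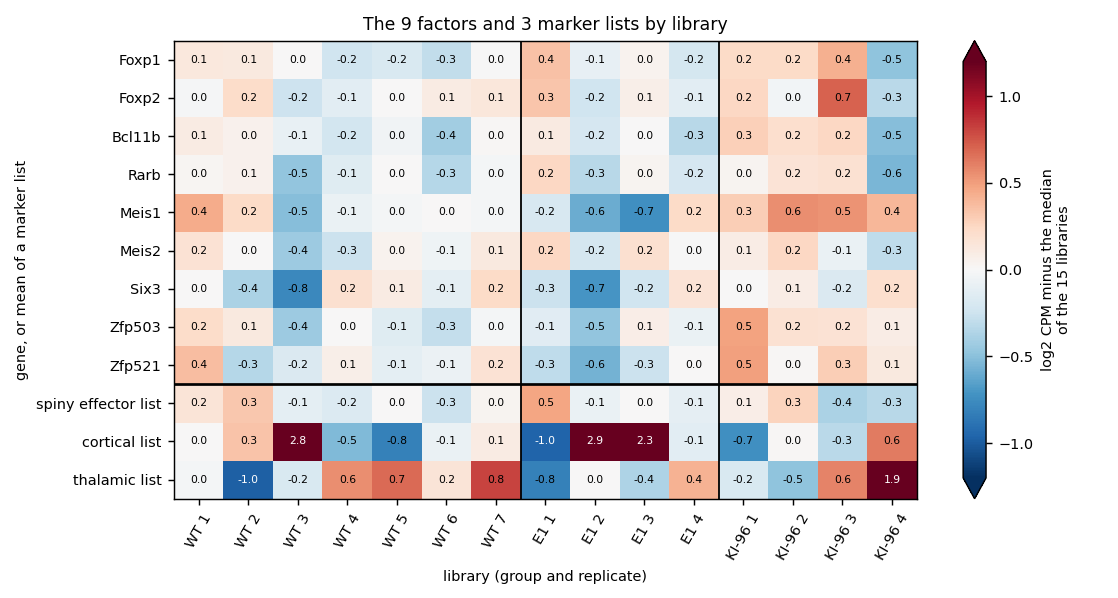
Log2 CPM of the 9 factors (upper rows) and mean log2 CPM of 3 marker lists (lower rows) in each library, as the difference from the median of the 15 libraries, in colour and in figures. The cortical list is highest in WT 3, E1 2 and E1 3 (means of 5.04 to 5.57), and the thalamic list in KI-96 4 (4.13), where Foxp1, Foxp2, Bcl11b and Rarb are lowest.

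Within WT the factors differed in how much they varied between mice. The coefficient of variation (SD over mean CPM) was 10.9% for Foxp2, 11.8% for Foxp1 and for Bcl11b and 13.4% for Rarb, near the median of 10.8% for tested genes of at least 5 CPM. It was 14.2% for Meis2, 15.4% for Zfp503, 16.8% for Zfp521, 20.2% for Meis1 and 22.3% for Six3, which exceeded 90.2% of those genes. Single WT libraries weighed on some of these values: Bcl11b was at 7.70% without replicate 6 and Six3 at 14.9% without replicate 3. In KI-96 the values of Bcl11b, Foxp1 and Rarb were 23.0%, 24.5% and 21.3% and rested on replicate 4, without which they were 2.99%, 8.16% and 5.34%. That of Foxp2 was 31.2%, and 19.6% without replicate 3. Six3 and Meis1 varied by 10.9% and 8.48% in KI-96, with Six3 at 7.13% without replicate 3, and Zfp503 by 12.4%, or 3.39% without replicate 1.

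The factors did not vary as one set across mice. Correlations of log2 CPM were computed for 36 pairs over the 12 libraries without high cortical markers, which pool the 3 genotypes and share depth and tissue makeup. Pearson's r ran from -0.673 to 0.929 with a median of 0.268, and 5 pairs had a Benjamini-Hochberg adjusted permutation p under 0.05. Foxp1, Bcl11b and Rarb were the closest. Foxp1 with Bcl11b had r = 0.929 and Spearman's rho = 0.958 (permutation p = 3e-05 and 1e-05, adjusted 0.00054 and 0.00036). Foxp1 with Rarb had r = 0.923 and rho = 0.944 (permutation p = 1e-05 and 4e-05, adjusted 0.00036 and 0.00072), and Bcl11b with Rarb had r = 0.919 and rho = 0.888 (permutation p = 6e-05 and 0.00027, adjusted 0.00072 and 0.00324). A p of 1e-05 is the smallest that 100000 permutations can give. Without the 2 libraries farthest from the median of the first gene, r was 0.893, 0.903 and 0.827. Among all other tested genes Bcl11b ranked 10 and Rarb 17 in likeness to Foxp1.

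The other pairs were weaker or negative. Foxp1 with Foxp2 had r = 0.799 (permutation p = 0.00114, adjusted 0.0103) and rho = 0.748 (permutation p = 0.00698, adjusted 0.0628), and r was 0.634 without the 2 farthest libraries. Rarb with Meis2 had r = 0.741 (permutation p = 0.00641, adjusted 0.0462) and rho = 0.594 (permutation p = 0.0455, adjusted 0.119), and r was 0.584 without the 2 farthest. Meis1 with Zfp503 had r = 0.679 and rho = 0.699 (permutation p = 0.0138 and 0.0147, adjusted 0.057 and 0.0754) and Zfp503 with Zfp521 had r = 0.664 and rho = 0.664 (permutation p = 0.019 and 0.0227, adjusted 0.057 and 0.0817). Without the 2 farthest these were 0.639 and 0.518. Six3 had a negative r with Foxp2 (-0.673, rho = -0.706, permutation p = 0.0144 and 0.0129, adjusted 0.057 and 0.0754), which was -0.698 without the 2 farthest. Meis1 with Meis2, the relatives within the set, had r = 0.009 and rho = 0.028 (permutation p = 0.976 and 0.938, adjusted 0.976 and 0.965), and 0.036 without the 2 farthest.

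**Figure D5:**
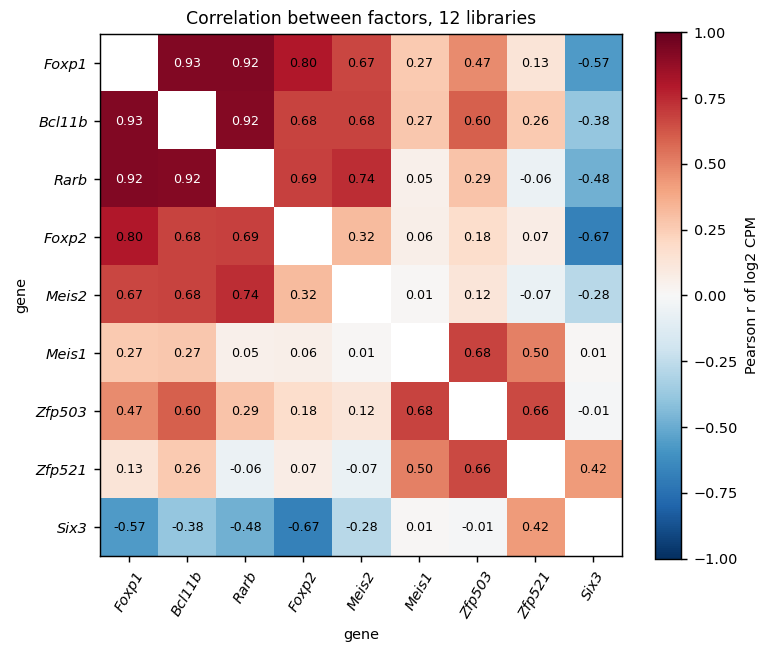
Pearson's r of log2 CPM between the 9 factors (both axes) over the 12 libraries without high cortical markers, in colour and in figures. Foxp1, Bcl11b and Rarb form a block at 0.92 to 0.93, Meis1, Zfp503 and Zfp521 stand at 0.50 to 0.68 with each other, and Six3 is negative with Foxp1, Foxp2, Bcl11b, Rarb and Meis2.

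The genes most alike to each factor over these 12 libraries were sought among 13541 named genes of at least 1 CPM, and their r is given as a description. Foxp1 was most like Tgfa (r = 0.985), a growth factor, and Gnal (r = 0.953). Bcl11b was most like Adcy5 (r = 0.967) and Gpr158 (r = 0.950), and Rarb like Fam78b (r = 0.926) and Cep63 (r = 0.924). Foxp2 was most like Cul5 (r = 0.954) and Rmnd5a (r = 0.946), both parts of ubiquitin ligases, and Meis2 like Sncaip (r = 0.876) and Rbm24 (r = 0.863). Six3 was most like Trh (r = 0.948), which encodes thyrotropin-releasing hormone, and Gdap1l1 (r = 0.933). Meis1 was most like Chrm3 (r = 0.928), a muscarinic receptor, and Ciapin1 (r = 0.903). Zfp503 was most like Slc15a3 (r = 0.970) and Gpat4 (r = 0.943), and Zfp521 like the lysosomal enzyme genes Smpd1 (r = 0.943) and Acp2 (r = 0.940). Without the 2 libraries farthest from the median of the factor, r fell most for the genes like Meis2, to 0.750 for Sncaip and 0.682 for Rbm24. The other genes named here then ran from 0.832 for Gdap1l1 to 0.978 for Tgfa.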

How the data were processed

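Striatal RNA was sequenced in 15 libraries, 1 per mouse. The authors deposited whole-number read counts per gene, without normalization. Per the submitters' processing notes, the tools were HTSeq, STAR and DESeq2 1.24.0 and the build was GRCm38, without roles or settings. For annotation release and strand, nothing is stated in these sources. Symbols, coordinates and exon lengths came from GENCODE annotation of GRCm38, which matched 54165 of 54232 identifiers without their version. Libraries were grouped by their titles.

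The counts were filtered with the default of edgeR 4.0.16 by group (minimum count 10), normalized by trimmed mean of M-values, and fitted with a robust quasi-likelihood model of group in all 15 libraries. Tests were two-sided, with Benjamini-Hochberg adjustment over all 18278 genes tested and a threshold of 0.05. A standard error is the size of the log2 fold change over the root of F, and a prior count of 2 entered log2 CPM. Correlations used 100000 permutations. Counting precision is set by the reads per gene: the factors had 140 to 10924 reads per library. The p-values of the comparisons weigh a difference between group means against the spread between mice. DESeq2 1.42.0, limma-voom (limma 3.58.1), RLE size factors, no filter, 2-group fits, a replicate block, left-out libraries and marker covariates were alternatives, and the covariates of spiny effector and thalamic genes were chosen after seeing the data. A library had high cortical markers where their mean lay over 1 log2 unit above the median library. Of each list the members past the threshold were to be named, or otherwise the highest and the lowest (1 of these is not reported here), and for likeness the 2 genes with the highest r. Dlx1 was singled out from its values. The factors and lists were chosen with earlier results of these data known. The fit was tested on simulated counts with known changes. Replicate numbers are not taken as pairs, since each library has its own mouse number.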

Additional observations from a re-analysis of the deposited data

Results flagged for a closer look

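Bcl11b in KI-96 replicate 4 stood apart from its group: it was at 277 CPM where the other 3 KI-96 libraries were at 455 to 483 CPM. Its gap to the nearest of them, over the range of the group, was 0.864, which exceeded the 95% critical value of Dixon's test for 4 samples. Of 27 combinations of factor and group tested it was the single one, and chance flags about 1 in 20.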

How the results depend on the processing

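Over 26 alternatives, 12 of the 27 log2 fold changes (9 factors in 3 comparisons) kept their direction under every one, among them Meis1, Zfp503, Zfp521, Six3 and Bcl11b in KI-96 against E1. Of 702 recomputed values 40 changed sign, all of factors that were not called, and 2 passed the threshold: Meis1 in KI-96 against E1 with DESeq2 (0.74) and without E1 replicate 4 (0.95). The number of factors called in that comparison was 0, or 1 with DESeq2, and 0 to 1 when single libraries were left out. Genes called in E1 against WT, 1 with edgeR, were 58 with DESeq2, 2 with limma-voom, 4 with the replicate block, and 0 with no filter, with only the 2 groups, without the 3 libraries with high cortical markers, and with cortical, Y-linked, spiny effector or thalamic genes as a covariate. In KI-96 against WT, 0 with edgeR, they were 72 with DESeq2, 1 with limma-voom, 1 with no filter and 6 with the replicate block. In KI-96 against E1, 0 with edgeR, they were 206 with DESeq2 and 3 with no filter. With single libraries left out these counts ran from 0 to 257, 0 to 11 and 0 to 190. The highest were without E1 replicate 4 (257 and 190) and without WT replicate 1 (11), and without KI-96 replicate 4 there were 128 in KI-96 against E1. The cause of these shifts was not tested.

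Sign changes in E1 against WT were Foxp2 at -0.0013 with limma-voom, Bcl11b at 0.0066 with cortical markers as a covariate, Foxp1, Rarb and Meis2 at -0.094, -0.068 and -0.092 with the Y-linked covariate, Foxp2 at -0.013 with spiny effector genes, and Foxp1, Foxp2 and Rarb at -0.0022, -0.050 and -0.010 with thalamic markers. In KI-96 against WT they were Meis2 at -0.014 without the 3 libraries with high cortical markers, and Bcl11b, Rarb, Meis2 and Zfp521 at -0.012, -0.036, -0.15 and -0.13 with the Y-linked covariate. In KI-96 against E1 they were Rarb at -0.060 without the 3 libraries and -0.096 with cortical markers as a covariate, and Meis2 at 0.027 with spiny effector and 0.018 with thalamic genes. The cause was not tested. Leaving out single libraries gave ranges that crossed 0 in E1 against WT for Foxp1 (-0.026 to 0.17), Foxp2 (-0.11 to 0.085), Bcl11b (-0.094 to 0.054), Rarb (-0.046 to 0.15) and Zfp503 (-0.15 to 0.027). They did so in KI-96 against WT for Foxp2 (-0.035 to 0.32) and Meis2 (-0.045 to 0.14), and in KI-96 against E1 for Foxp1 (-0.0064 to 0.26), Foxp2 (-0.042 to 0.32), Rarb (-0.054 to 0.17) and Meis2 (-0.16 to 0.026).

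Libraries with the same replicate number come from different mice, and their deviations correlated between -0.103 and 0.194 over 12 pairs, with the best match under the own number in 4 of 12. The replicate block changed no call of a factor: Meis1 in KI-96 against E1 had 0.77 (SE 0.22, edgeR adjusted p = 0.349). Meis1 had the fewest reads of the factors, 140 to 395 per library, and what depth contributes to its spread was not tested.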
